A study of Mus musculus with 12 samples.

Results

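Translation initiation factors are the proteins that bring a ribosome and the initiator tRNA to the start codon of an mRNA. Their genes were taken as every gene of the expression table whose symbol begins with Eif and a digit, leaving out the kinases of eIF2 (Eif2ak genes) and pseudogenes, and 49 of the 11264 genes in the table met this rule. The RNA came from cDC1s, a class of dendritic cell specialized in presenting antigen to CD8+ T cells, sorted on day 13 from tumors of B16F10, a transplanted mouse melanoma. The mice were young adult, sex-matched C57BL/6 animals that were either WT or Clec9agfp/gfp, in which a GFP sequence knocked into both copies of Clec9a removes DNGR-1, with which cDC1s sense dead cells. Mice of both genotypes received, by hydrodynamic injection on the day before the tumor cells, either a plasmid that expresses Flt3L (FL), on which dendritic cells depend, or an empty plasmid (control), so every mouse carried a tumor and received a plasmid. The 4 groups, WT control, Clec9agfp/gfp control, WT FL and Clec9agfp/gfp FL, held 3 libraries each, made from pooled cells of 2 to 3 mice.

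Initiation begins when eIF2 carries the initiator tRNA to the small ribosomal subunit, together with eIF1, eIF1A, eIF5 and the large scaffold eIF3. The eIF4F complex, made of the cap-binding protein eIF4E, the scaffold eIF4G and the helicase eIF4A, then recruits the mRNA, and eIF4E-binding proteins (4E-BPs) keep eIF4E from eIF4G until mTOR phosphorylates them. After each round eIF2B reloads eIF2 with GTP, a step that the eIF2 kinases block under stress. In dendritic cells translation is known to be adjusted through both mTOR and eIF2 during activation.

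The deposited values are counts per M after TMM scaling (CPM), and the effective library size was 14.4 to 25.9 M counts in 11 libraries and 3.06 M in Clec9agfp/gfp control 3, whose values are therefore the least precise. Each of the 12 cDC1 markers looked for was in the table, with Xcr1 at 1211 to 1972 CPM and Irf8 at 2588 to 3474 CPM. Batf3 (34.1 to 127 CPM) and Wdfy4 (360 to 1339 CPM) varied more. Clec9a was at 288 to 388 CPM in WT libraries and at 0.269 to 10.9 CPM in Clec9agfp/gfp libraries, the highest of these in the shallow control 3. None of the 4 B-cell markers looked for was in the table, and the 6 melanoma markers summed to 16.1 to 112 CPM. Other cell types had more: 9 macrophage and monocyte markers summed to 341 to 730 CPM and 4 of plasmacytoid dendritic cells to 79.0 to 182 CPM. For cDC2s, another class of dendritic cell, 6 markers summed to 25.5 to 73.4 CPM. The sums were 20.3 to 62.4 CPM for 2 T-cell markers and 7.13 to 54.2 CPM for 4 of fibroblasts and endothelium. As these are bulk samples, a lower value can come from fewer cells of a type or from less RNA per cell, and these cannot be told apart. In a principal component analysis WT control 1, WT control 3 and Clec9agfp/gfp FL 3 lay farthest from the rest. Groups were compared on log2(value + 1) with limma, over 11255 genes that include all 49 initiation factor genes, and a gene was called at an adjusted p under 0.1.

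Every initiation factor gene was above 1 CPM in all 12 libraries. Per kb of annotated exon, the highest mean levels over the 12 libraries belonged to Eif5a (388 CPM per kb), whose protein eases ribosomes through difficult peptide bonds, and Eif1 (309.9 CPM per kb), which guards the choice of start codon. The helicase gene Eif4a1 came next at 135 CPM per kb. At the other end were Eif5a2, the second copy of eIF5A, at 2.53 CPM per kb and the eIF2B subunit gene Eif2b3 at 3.14 CPM per kb. On the CPM scale the most variable genes were Eif3b, whose highest library was 10.96-fold above its lowest, Eif3f (9.74-fold) and Eif2b5 (6.80-fold), whereas Eif3c varied 1.36-fold.

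With FL, few initiation factor genes passed the test in either genotype. In WT cDC1s 2 genes rose, Eif4g2 and Eif4g1, and 3 fell, Eif2b2, Eif3i and Eif4ebp1, making 5 of 49 (10.2%) beside 6.56% of all genes. By direction this was 4.08% higher and 6.12% lower, beside 5.37% and 1.19% of all genes. In Clec9agfp/gfp cDC1s none rose and 3 fell, Eif3b, Eif2b5 and Eif5, which is 6.12% of 49 beside 5.46% of all genes, made up of 2.01% higher and 3.45% lower. With both genotypes averaged 10 of 49 were called (20.4%, beside 17.5% of all genes), with Eif4g1, Eif4g2 and Eif5a2 higher and Eif2b2, Eif2b5, Eif3b, Eif4ebp1, Eif4ebp2, Eif5 and Eif5a lower. Of the 49 genes 6.12% were thus higher and 14.3% lower, beside 9.6% and 7.85% of all genes. The shares called in either direction lay near those of all genes, with more of the calls being lower ones than among all genes. No initiation factor gene was called in the interaction of genotype and FL, nor was any of all genes tested (0.00%), so a difference of the FL effect between genotypes was not shown for any of them. At an unadjusted p under 0.05 the interaction held 5 of 49 (10.2%, beside 9.12% of all genes), and edgeR and limma-voom called none of the 49 either.

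**Figure D1:**
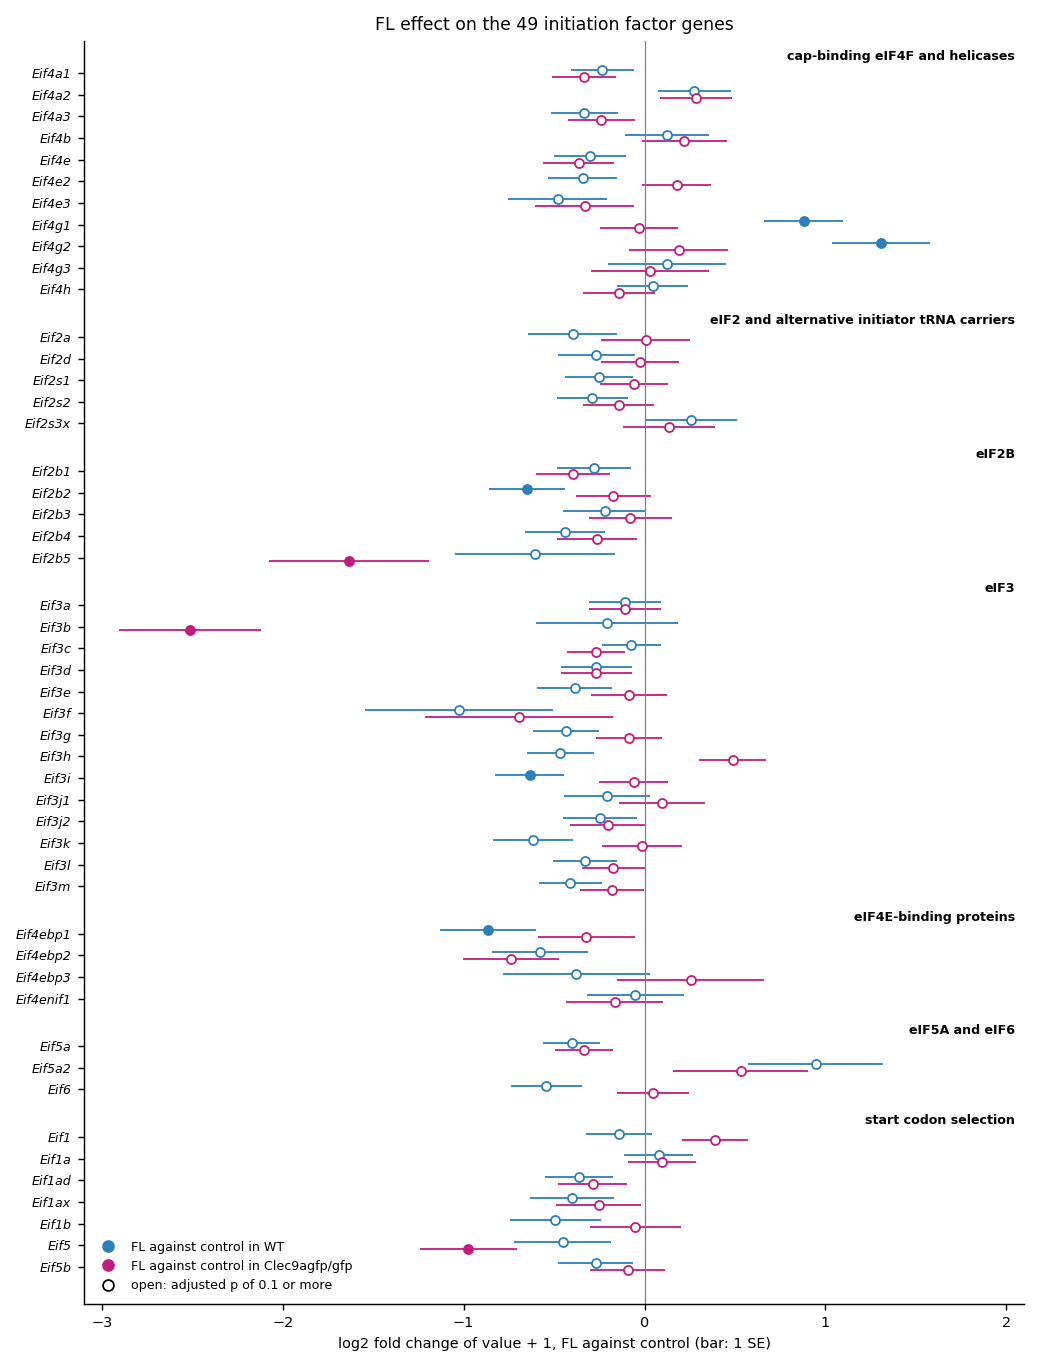
Log2 fold change of value + 1 for FL against control in WT (blue) and Clec9agfp/gfp (magenta) cDC1s for the 49 genes, grouped by role; bars are 1 SE and filled points have an adjusted p under 0.1. Most blue points lie left of 0, Eif4g1 and Eif4g2 stand to the right in WT, and Eif3b, Eif2b5 and Eif5 stand to the left in Clec9agfp/gfp.

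The signs of the log2 fold changes leaned to lower values with FL. In WT cDC1s 40 of 49 genes had a value below 0 (81.6%, beside 50.3% of all genes), and their median log2 fold change was −0.30, beside −0.01 over all genes. In 21 of 49 (42.9%, beside 10.8% of all genes) the 3 WT FL libraries were all below the 3 WT control libraries, among them Eif4a1, Eif4e, Eif2s1, Eif5a, Eif6 and 7 subunit genes of eIF3. The opposite order held for 2 of 49 (4.08%, beside 12.1% of all genes), Eif4g1 and Eif4g2. In Clec9agfp/gfp cDC1s 35 of 49 were below 0 (71.4%, beside 49.1% of all genes) with a median of −0.11, and 9 of 49 (18.4%, beside 13.6% of all genes) did not overlap and were lower, while 2 of 49 (beside 10.6% of all genes), Eif1 and Eif3h, did not overlap and were higher. Averaged over both genotypes 39 of 49 were below 0 (79.6%, beside 50.2% of all genes). With libraries scaled by column totals instead of TMM the median of all genes in WT was 0.11, and that of the initiation factor genes was −0.18.

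Eif3b (ENSMUSG00000056076, chr5:140419328-140443360 of GRCm38, plus strand) encodes a core scaffold subunit of eIF3 with an RNA recognition motif. Its level was 152, 68.7 and 127 CPM in WT control 1, 2 and 3 and 159, 348 and 220.5 CPM in Clec9agfp/gfp control 1, 2 and 3. It was 71.5, 193 and 62.3 CPM in WT FL and 31.7, 51.6 and 37.6 CPM in Clec9agfp/gfp FL libraries. The 3 Clec9agfp/gfp control libraries lay above every WT control library, and the 3 Clec9agfp/gfp FL libraries lay below all other libraries. In WT the control and FL libraries overlapped, since WT FL 2 exceeded every WT control library. The mean in Clec9agfp/gfp cDC1s was 242 ± 96.2 CPM with control and 40.3 ± 10.2 CPM with FL (SD, n = 3 each), a 6.02-fold difference. With FL in Clec9agfp/gfp cDC1s Eif3b fell by 2.51 on the log2 scale (SE 0.39, limma's adjusted p = 0.0102). In WT cDC1s the log2 fold change was −0.21 (SE 0.39, adjusted p = 0.783), with means of 116 ± 42.8 and 109 ± 72.9 CPM. The interaction was −2.31 on the log2 scale (SE 0.55, unadjusted p = 0.000704, adjusted p = 0.353), which was not called. The genotypes differed by 1.06 with control (adjusted p = 0.19) and by −1.25 with FL (adjusted p = 0.9999), both without a call. The call in Clec9agfp/gfp held in each of the 23 alternatives tried, with log2 fold changes of −2.78 to −2.22 when 1 library was left out.

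**Figure D2:**
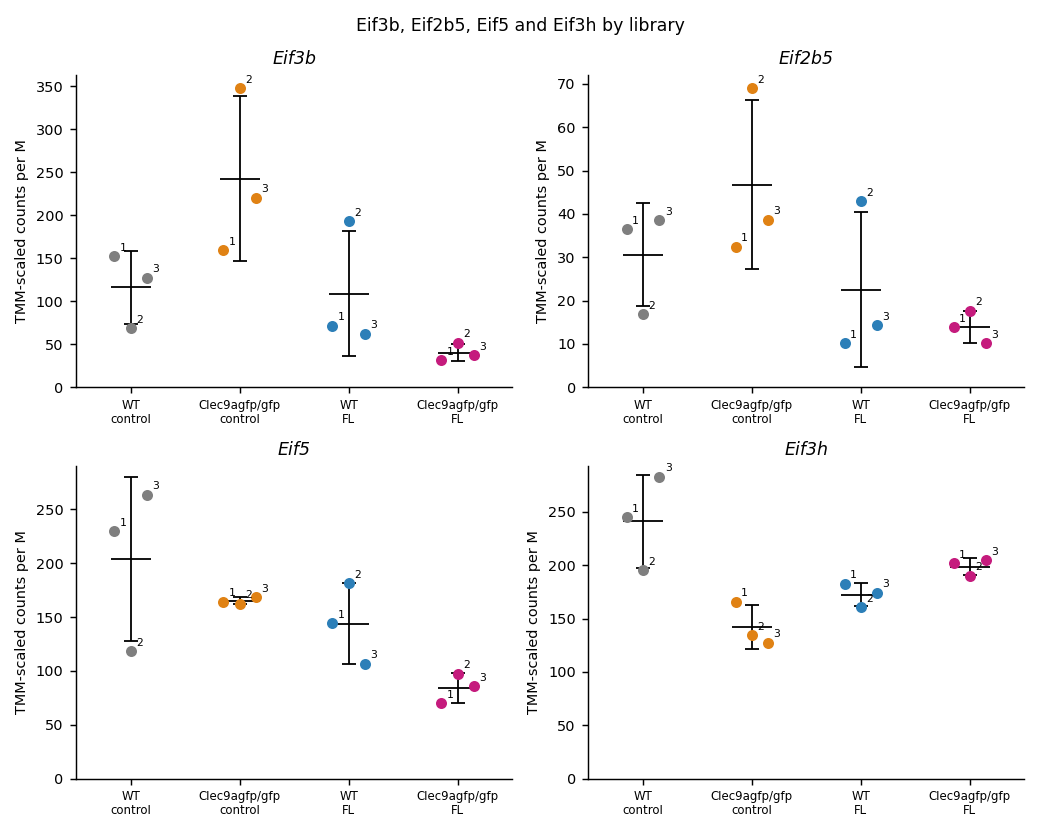
TMM-scaled counts per M of Eif3b, Eif2b5, Eif5 and Eif3h in each library, marked by replicate number, with the mean and SD of each group of 3 (axes start at 0). Eif3b was 159 to 348 in Clec9agfp/gfp control and 31.7 to 51.6 in Clec9agfp/gfp FL libraries, WT FL 2 stood out for Eif3b and Eif2b5, and the groups of Eif3h, which was not called in either genotype, did not overlap within WT (195 to 283 with control, 161 to 183 with FL) or within Clec9agfp/gfp (127 to 166 with control, 190.2 to 204 with FL).

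The other 13 eIF3 subunit genes had smaller fold changes than Eif3b in Clec9agfp/gfp cDC1s. Their median log2 fold change with FL was −0.11, the values ran from −0.70 for Eif3f to 0.49 for Eif3h, and none was called. Relative to the mean of these 13 on the log2(value + 1) scale, Eif3b stood at 0.40, 1.31 and 0.86 in Clec9agfp/gfp control 1, 2 and 3 and at −1.86, −1.22 and −1.53 in Clec9agfp/gfp FL 1, 2 and 3. It stood at −0.12, −0.95 and −0.41 in WT control and at −0.68, 0.68 and −0.90 in WT FL libraries. The difference of the group means was −2.39 in Clec9agfp/gfp and 0.19 in WT cDC1s. With 1 library left out, the WT difference ran from −0.30 (without WT FL 2) to 0.49, and it was −0.04 without WT control 2. In WT cDC1s, where Eif3b was not called, all 13 others had a log2 fold change below 0, from −1.02 to −0.07, with 1 called, Eif3i. Over the 12 libraries Eif3b was most like Eif2b5 among the initiation factor genes (Pearson's r = 0.922 on the log2 scale, n = 12 libraries that share 4 groups). Its r with its fellow subunit genes ranged from −0.441 for Eif3h to 0.721 for Eif3c. These are descriptions of 12 libraries in which the groups differ.

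**Figure D3:**
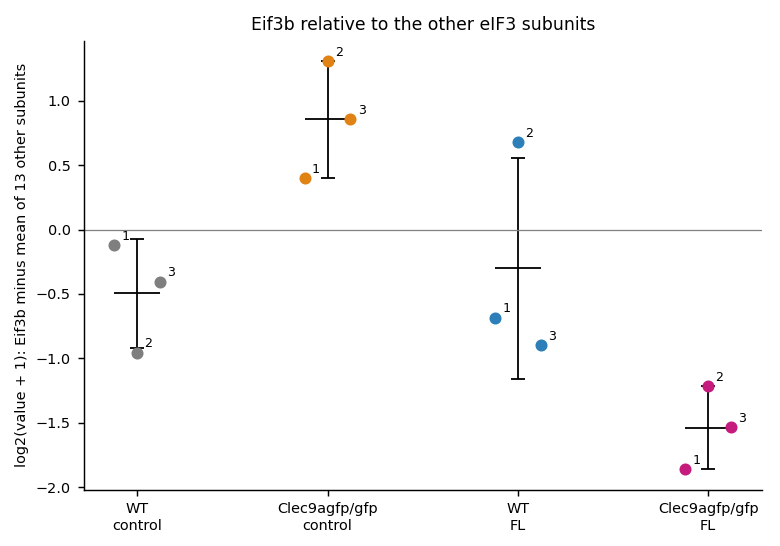
Difference on the log2(value + 1) scale between Eif3b and the mean of the 13 other eIF3 subunit genes in each library, marked by replicate number, with the mean and SD of each group of 3. The 3 Clec9agfp/gfp control libraries lie above 0 and the 3 Clec9agfp/gfp FL libraries at −1.86 to −1.22, with WT FL 2 far from the other WT FL libraries.

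Eif2b5 and Eif5 were the other genes that fell with FL in Clec9agfp/gfp cDC1s. Eif2b5 encodes the catalytic subunit of eIF2B, the exchange factor that reloads eIF2. It was at 36.4, 16.9 and 38.5 CPM in WT control, 32.5, 69.0 and 38.7 CPM in Clec9agfp/gfp control, 10.1, 43.0 and 14.4 CPM in WT FL and 13.8, 17.7 and 10.2 CPM in Clec9agfp/gfp FL libraries. As for Eif3b, WT FL 2 and Clec9agfp/gfp control 2 were the highest of their groups, and the Clec9agfp/gfp groups did not overlap. Its log2 fold change was −1.64 in Clec9agfp/gfp (SE 0.44, adjusted p = 0.0585) and −0.60 in WT cDC1s (SE 0.44, adjusted p = 0.429). The remaining subunit genes of eIF2B, Eif2b1 to Eif2b4, ran from −0.39 to −0.08 in Clec9agfp/gfp cDC1s without a call.

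Eif5 encodes the protein that makes eIF2 hydrolyze its GTP once the start codon is found. Its level was 229.8, 119 and 264 CPM in WT control and 164, 163 and 169 CPM in Clec9agfp/gfp control libraries. With FL it was 144, 181 and 107 CPM in WT and 69.9, 97.5 and 85.7 CPM in Clec9agfp/gfp libraries, the latter below all others. The log2 fold change was −0.97 in Clec9agfp/gfp (SE 0.27, adjusted p = 0.0615) and −0.45 in WT cDC1s (SE 0.27, adjusted p = 0.324). Both calls were lost when Clec9agfp/gfp control 2, control 3, FL 1 or FL 3 was left out (adjusted p = 0.133 to 0.269 for Eif2b5 and 0.164 to 0.228 for Eif5), and that of Eif5 also without Clec9agfp/gfp control 1 (adjusted p = 0.1 after rounding).

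Upstream sequence is shown for 4 called genes, Eif3b and Eif2b5, the pair most alike over the libraries that fell in Clec9agfp/gfp cDC1s, and Eif4g1 and Eif5a2, which were higher with FL over both genotypes. Each run is the 250 bases before the RefSeq start (GRCm38.p6), written 5′ to 3′ on the plus strand, on which all 4 genes lie. They are chr5:140419055-140419304, chr16:20498567-20498816, chr16:20672477-20672726 and chr3:28781027-28781276 in this order. Capitals mark CACGTG, the E-box bound by Myc and its relatives, which are known regulators of initiation factor genes.
Eif3b: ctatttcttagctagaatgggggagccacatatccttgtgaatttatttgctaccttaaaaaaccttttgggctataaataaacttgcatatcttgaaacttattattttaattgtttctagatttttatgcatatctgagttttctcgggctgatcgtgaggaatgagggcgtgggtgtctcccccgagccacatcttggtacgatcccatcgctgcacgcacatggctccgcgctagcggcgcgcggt
Eif2b5: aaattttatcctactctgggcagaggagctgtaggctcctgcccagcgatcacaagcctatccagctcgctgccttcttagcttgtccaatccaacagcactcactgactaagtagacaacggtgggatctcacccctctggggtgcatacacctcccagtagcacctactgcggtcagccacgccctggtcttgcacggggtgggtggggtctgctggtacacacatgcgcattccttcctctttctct
Eif4g1: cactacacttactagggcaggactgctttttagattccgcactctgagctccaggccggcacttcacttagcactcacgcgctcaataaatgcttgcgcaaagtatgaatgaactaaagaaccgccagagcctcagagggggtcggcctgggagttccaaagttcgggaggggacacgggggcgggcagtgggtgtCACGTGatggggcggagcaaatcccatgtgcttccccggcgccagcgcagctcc
Eif5a2: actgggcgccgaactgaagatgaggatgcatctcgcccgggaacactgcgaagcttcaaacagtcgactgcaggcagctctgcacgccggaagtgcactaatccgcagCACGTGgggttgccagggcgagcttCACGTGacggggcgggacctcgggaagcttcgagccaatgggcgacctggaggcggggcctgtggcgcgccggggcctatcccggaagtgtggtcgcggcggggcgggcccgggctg
Of the 49 genes, 38 had such a window, and the motif (the same on both strands) was in at least 1 window of 9 of them, which is 23.7%, beside 10.1% of 8440 tested genes with a window. The 9 were Eif1b, Eif3f, Eif3k, Eif4a1, Eif4e, Eif4g1, Eif4h, Eif5a and Eif5a2, which took different directions with FL, as Eif5a and Eif5a2 show. ATTGCATCA, a form of the element that Atf4 binds, was in 0 of the 38 windows on either strand and in 0.107% of those of tested genes. The GC content was 44.8% for Eif3b, 56% for Eif2b5, 58.8% for Eif4g1 and 68.4% for Eif5a2, beside a median of 62.4% over the 38 genes.

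Eif4g2 and Eif4g1 were the 2 genes that rose with FL in WT cDC1s. Eif4g1 encodes the scaffold that ties the cap to the ribosome, and Eif4g2 (also known as Dap5) encodes a relative that lacks the eIF4E-binding part and serves cap-independent initiation. Eif4g2 was at 321, 439.9 and 189 CPM in WT control and 653, 783 and 799 CPM in WT FL libraries. It was at 664, 414 and 657 CPM in Clec9agfp/gfp control and 635, 533 and 791 CPM in Clec9agfp/gfp FL libraries. The WT control libraries thus stood low, with 1 of the 3, WT control 2, above Clec9agfp/gfp control 2, and the Clec9agfp/gfp groups overlapped. The mean was 2.35-fold higher with FL in WT cDC1s, and the log2 fold change was 1.31 (SE 0.27, limma's adjusted p = 0.0388). In Clec9agfp/gfp cDC1s it was 0.19 (SE 0.27, adjusted p = 0.806), and the interaction of −1.12 was not called (SE 0.38, adjusted p = 0.455).

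Eif4g1 was at 108, 109 and 64.9 CPM in WT control, 173, 122 and 131 CPM in Clec9agfp/gfp control, 166, 157 and 187 CPM in WT FL and 129, 134 and 150.4 CPM in Clec9agfp/gfp FL libraries. All WT control libraries were below all others. Its log2 fold change with FL was 0.88 in WT (SE 0.22, adjusted p = 0.0516) and −0.03 in Clec9agfp/gfp cDC1s (SE 0.22, adjusted p = 0.965), with an interaction of −0.91 (SE 0.31, adjusted p = 0.455). Over the 12 libraries Eif4g1 was the initiation factor gene most like Eif4g2 (r = 0.93), followed by Eif5a2 (r = 0.791). The third family member, Eif4g3, had log2 fold changes of 0.12 and 0.03 and no call. Without WT control 3, WT FL 2 or WT FL 3 the calls of both genes in WT were lost (adjusted p = 0.114 to 0.208 for Eif4g2 and 0.166 to 0.249 for Eif4g1).

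**Figure D4:**
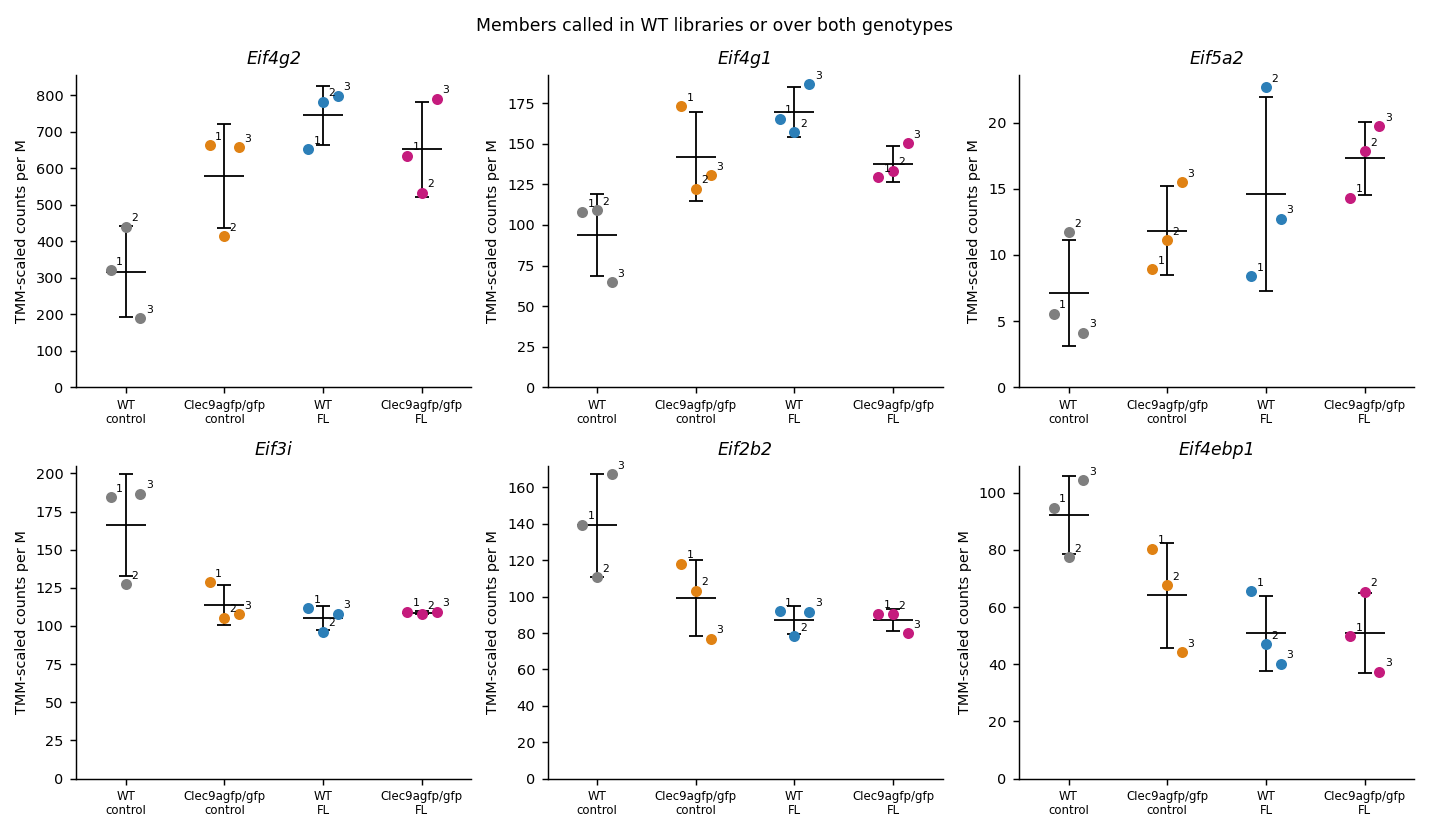
TMM-scaled counts per M of Eif4g2, Eif4g1, Eif5a2, Eif3i, Eif2b2 and Eif4ebp1 in each library, marked by replicate number, with the mean and SD of each group of 3 (axes start at 0). The WT control libraries are low for Eif4g2 and Eif4g1 and high for Eif3i, Eif2b2 and Eif4ebp1, for which WT FL libraries lie below all WT control libraries.

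Eif2b2, Eif3i and Eif4ebp1 fell with FL in WT cDC1s. Eif3i, a subunit gene of eIF3, was at 185, 127 and 187 CPM in WT control and 112, 96.3 and 108 CPM in WT FL libraries, beside 129, 105 and 108 CPM in Clec9agfp/gfp control and 109, 108 and 109 CPM in Clec9agfp/gfp FL libraries. Its log2 fold change was −0.64 in WT (SE 0.19, adjusted p = 0.0842) and −0.06 in Clec9agfp/gfp cDC1s (adjusted p = 0.922). Eif2b2, which encodes a regulatory subunit of eIF2B, was at 139, 111 and 167 CPM in WT control and 91.9, 78.4 and 91.8 CPM in WT FL libraries. In Clec9agfp/gfp cDC1s it was at 118, 103 and 76.9 CPM with control and 90.5, 90.3 and 79.9 CPM with FL. The log2 fold change was −0.65 in WT (SE 0.21, adjusted p = 0.0993) and −0.17 in Clec9agfp/gfp cDC1s (adjusted p = 0.756). For both genes the control libraries of WT were above all WT FL libraries, whereas the Clec9agfp/gfp groups overlapped.

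Eif4ebp1 encodes 4E-BP1, the mTOR substrate that holds back cap-dependent initiation. It was at 94.8, 77.4 and 104 CPM in WT control, 80.5, 67.7 and 44.2 CPM in Clec9agfp/gfp control, 65.5, 47.0 and 40.2 CPM in WT FL and 49.9, 65.4 and 37.3 CPM in Clec9agfp/gfp FL libraries. Its log2 fold change was −0.86 in WT (SE 0.27, adjusted p = 0.09) and −0.32 in Clec9agfp/gfp cDC1s (SE 0.27, adjusted p = 0.618). The 3 calls of lower genes in WT were close to the threshold. All 3 were lost with column totals (adjusted p = 0.141 to 0.163), with edgeR (adjusted p = 0.1 to 0.111) and when WT control 1 or 3, WT FL 2 or 3, Clec9agfp/gfp control 2 or Clec9agfp/gfp FL 1 or 2 was left out (adjusted p = 0.105 to 0.364).

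Eif4ebp2, Eif5a and Eif5a2 were called in neither genotype alone but were called with both averaged. Eif4ebp2, the gene of another 4E-BP, was at 46.4, 31.3 and 25.2 CPM in WT control, 25.2, 37.1 and 30.8 CPM in Clec9agfp/gfp control, 19.5, 23.3 and 23.2 CPM in WT FL and 19.9, 21.7 and 13.4 CPM in Clec9agfp/gfp FL libraries. All 6 FL libraries were below all 6 control libraries, and the log2 fold change was −0.66 (SE 0.19, adjusted p = 0.0371). Eif5a showed the same order, with 1179.6, 1036 and 1132 CPM in WT control and 987, 936 and 968 CPM in Clec9agfp/gfp control libraries, against 908, 779.7 and 845 CPM in WT FL and 699, 787 and 809 CPM in Clec9agfp/gfp FL libraries. Its log2 fold change was −0.37 (SE 0.11, adjusted p = 0.0479). These 2 of 49 (4.08%, beside 1.26% of all genes) had 6 FL libraries below all 6 control libraries, and 0 of 49 had them above (beside 1.81% of all genes).

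Eif5a2 had the opposite sign to Eif5a. It was at 5.57, 11.7 and 4.12 CPM in WT control, 8.93, 11.1 and 15.5 CPM in Clec9agfp/gfp control, 8.41, 22.7 and 12.7 CPM in WT FL and 14.3, 17.8 and 19.7 CPM in Clec9agfp/gfp FL libraries. The groups overlapped, and the log2 fold change over both genotypes was 0.74 (SE 0.26, adjusted p = 0.0844). The call was lost in 9 of 22 alternatives, all of which left out 1 library. Eif6, which keeps the large ribosomal subunit from joining too early, had log2 fold changes of −0.54 in WT and 0.05 in Clec9agfp/gfp cDC1s without a call.

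Seen by role, the FL effect in WT cDC1s was below 0 for all 14 eIF3 genes (median −0.36) and all 5 eIF2B genes (median −0.44). It was also below 0 for all 4 genes grouped as eIF4E-binding (median −0.48), which are Eif4ebp1, Eif4ebp2, Eif4ebp3 and Eif4enif1 (−0.05). Of the genes of eIF4F and the helicases 5 of 11 were below 0 in WT (median 0.05), and both calls were of higher genes. In Clec9agfp/gfp cDC1s 12 of 14, 5 of 5, 3 of 4 and 6 of 11 were below 0 in this order (medians −0.14, −0.26, −0.24 and −0.03). The cap-binding gene Eif4e had log2 fold changes of −0.30 and −0.37 in WT and Clec9agfp/gfp cDC1s, and the helicase genes Eif4a1 and Eif4a2 had −0.23 and 0.28 in WT, none of them called. Of the eIF2 genes, Eif2s1 for the subunit that the stress kinases phosphorylate had −0.25 and −0.06 without a call. The X-linked Eif2s3x was at 133, 152 and 68.6 CPM in WT control, 119.8, 119 and 163 CPM in Clec9agfp/gfp control, 117, 132 and 154 CPM in WT FL and 151, 131 and 157 CPM in Clec9agfp/gfp FL libraries, with overlapping groups and no call. Its Y-linked counterpart Eif2s3y was not analysed here. Of the 7 genes for start codon selection, only Eif5 was called in either genotype, and Eif1 had −0.14 in WT and 0.39 in Clec9agfp/gfp cDC1s (adjusted p = 0.299).

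Between genotypes under the same plasmid no initiation factor gene was called by limma, edgeR or limma-voom. With control 0.0267% of all genes were called, and at an unadjusted p under 0.05 limma held 10 of the 49 (20.4%, beside 19.6% of all genes). With FL 0.0267% of all genes were called, and 2 of the 49, Eif3b and Eif5, had an unadjusted p under 0.05 (4.08%, beside 3.83% of all genes). Without WT control 2 the comparison of the control groups called 9 of the 49 (18.4%, beside 20.7% of all genes), and without Clec9agfp/gfp control 1 it called 2 (4.08%, beside 1.39% of all genes). Against WT control, where genotype and plasmid differ together, Clec9agfp/gfp FL cDC1s had 3 higher and 12 lower genes, 30.6% of 49 beside 22.7% of all genes. By direction this was 6.12% higher and 24.5% lower, beside 12.8% and 9.85% of all genes. Those added here were Eif1ad, Eif3f, Eif3g, Eif3k and Eif3m, all lower. Eif3f, a subunit gene of eIF3, was at 192, 32.5 and 82.3 CPM in WT control and 29.1, 33.5 and 24.5 CPM in Clec9agfp/gfp FL libraries (log2 fold change −1.45, SE 0.52, adjusted p = 0.0734), so WT control 2 overlapped the FL libraries. Without Clec9agfp/gfp FL 3 this comparison called 1 of the 49 (2.04%, beside 4.39% of all genes) and without WT control 3 it called 2 (4.08%, beside 5.64% of all genes), so the share of all genes fell as well. The comparisons share their control libraries and are not independent.

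Gene length moved with the log2 fold changes in the comparisons that use the WT control libraries, among them the FL effect in WT cDC1s. Over all genes, the median log2 fold change increased with annotated exonic length from −0.32 in the shortest of 5 equal classes (up to 2362 bases) to 0.27 in the longest (above 7419 bases), and from −0.35 to 0.27 between the genotypes with control. For Clec9agfp/gfp FL against WT control the shortest and longest classes had −0.34 and 0.31, and for the interaction 0.36 and −0.24. In the 2 comparisons without WT control they had 0.06 and 0.07 (FL in Clec9agfp/gfp cDC1s) and −0.02 and 0.02 (between the genotypes with FL). The cause of this trend was not tested. Of the genes called in WT, Eif4g1 and Eif4g2 have 7301 and 10166 exonic bases, and the 3 lower genes have 1885 to 3702 bases. When each library was adjusted for length, an alternative chosen after seeing the data, Eif4g2 kept its call in WT (log2 fold change 1.01, adjusted p = 0.084), while Eif4g1 (0.64, adjusted p = 0.117) and the 3 lower genes did not. The 3 calls in Clec9agfp/gfp remained, with −2.43 for Eif3b (adjusted p = 0.00877). The median over the 49 genes in WT was −0.33 after the adjustment, with 42 below 0. Over all genes the median was then −0.04, with 53.55% below 0.

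**Figure D5:**
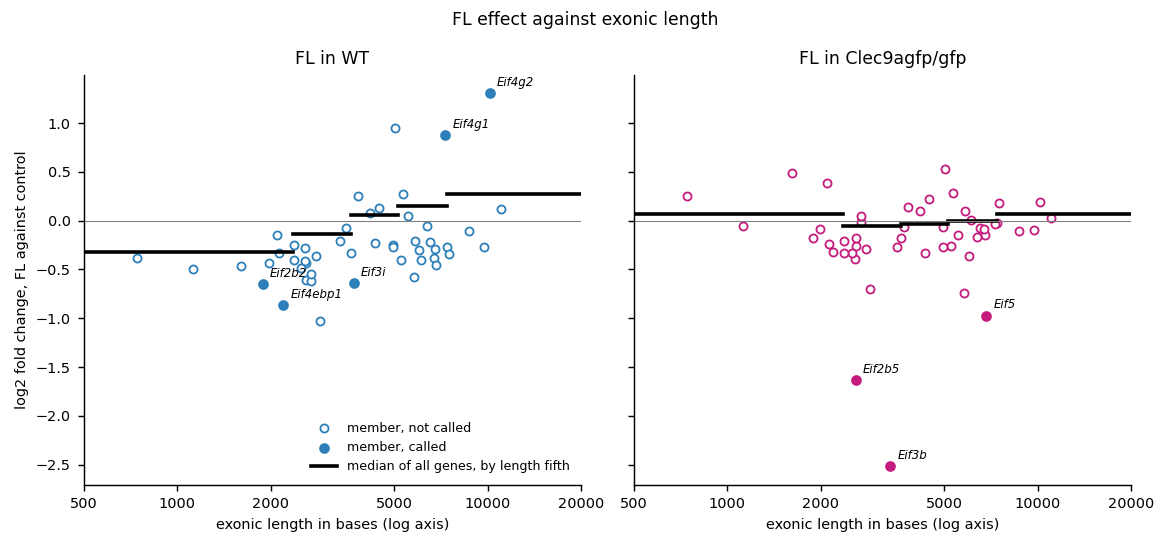
Log2 fold change of FL against control in WT (left) and Clec9agfp/gfp (right) cDC1s against annotated exonic length on a log axis for the 49 genes (filled points called), with black lines for the median of all genes in each of 5 length classes. In WT the medians climb from −0.32 to 0.27, and Eif4g1 and Eif4g2 lie at the long end. In Clec9agfp/gfp they stay between −0.06 and 0.07, and Eif3b, Eif2b5 and Eif5 lie far below them.

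Related genes of translation control were looked at in 5 further lists. For scale, 5.37% of all genes were called higher and 1.19% lower with FL in WT cDC1s. In Clec9agfp/gfp cDC1s these shares were 2.01% and 3.45%, and with both genotypes averaged 9.6% and 7.85%. Of 11 eIF2 kinase and stress-response genes tested, 1 rose in WT cDC1s, Ppp1r15b, which encodes the constitutive partner of the eIF2 phosphatase (log2 fold change 1.00, SE 0.25, adjusted p = 0.0508), and none was called in Clec9agfp/gfp cDC1s. Eif2ak4, the gene of the amino acid sensor Gcn2, had 0.73 in WT (adjusted p = 0.119). With both genotypes averaged 3 of these 11 were called higher and none lower. They were Eif2ak4 (0.49, limma's adjusted p = 0.0885), Ppp1r15a (0.665, adjusted p = 0.0426) and Ppp1r15b (0.73, adjusted p = 0.0186). Of 17 genes of mTOR and cap-binding control, 3 rose and 1 fell in WT and none was called in Clec9agfp/gfp cDC1s. Tsc1, whose product restrains mTOR, rose (1.00, SE 0.23, adjusted p = 0.0473), as did Cyfip2, a partner of FMRP (0.80, SE 0.23, adjusted p = 0.0775). Averaged over both genotypes, 4 of the 17 were called higher and none lower. They were Tsc1 (0.85, limma's adjusted p = 0.00929), Mtor (0.74, adjusted p = 0.0288), Tsc2 (0.81, adjusted p = 0.0577) and Cyfip1 (0.59, adjusted p = 0.0744).

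Of 11 genes of poly(A)-binding partners and helicases, 1 rose in WT (beside 5.37% of all genes) and none was called in Clec9agfp/gfp cDC1s. The gene that rose was Paip2b, an inhibitor of poly(A)-binding protein (0.90, SE 0.26, adjusted p = 0.0805). Denr, which helps recycle ribosomes, had −0.58 in WT (adjusted p = 0.174). With both genotypes averaged Denr (−0.49, limma's adjusted p = 0.0753) and Dhx36 (−0.55, adjusted p = 0.0867) were called lower and none of this list higher. Of 11 elongation and termination genes, 2 fell in WT (beside 1.19% of all genes), among them the elongation factor gene Eef1g (−0.63, SE 0.17, adjusted p = 0.064). In Clec9agfp/gfp cDC1s 1 fell (beside 3.45% of all genes), Gspt1, which encodes the release factor eRF3a (−1.49, SE 0.42, adjusted p = 0.0673). Averaged over both genotypes, Eef1d, Eef1g and Gspt1 were called lower and none of this list higher. Neither mitochondrial initiation factor gene, Mtif2 and Mtif3, was called. The medians of these lists in WT were 0.11, 0.24, −0.22, −0.43 and −0.23 in the order given, beside −0.30 for the initiation factor genes and −0.01 for all genes.

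Proliferation genes moved with the FL effect as well. Of 16 tested, 3 fell in WT and 8 in Clec9agfp/gfp cDC1s, beside 1.19% and 3.45% of all genes, with medians of −0.37 and −0.79. Ccna2 for cyclin A2 fell by 2.54 on the log2 scale in Clec9agfp/gfp cDC1s (SE 0.28, adjusted p = 0.000785). Aurka for a mitotic kinase fell by 1.15 there (SE 0.22, adjusted p = 0.0152). Their summed level was 2457 to 3192 CPM in Clec9agfp/gfp control and 1259 to 1954 CPM in Clec9agfp/gfp FL libraries, and 2178 to 2653 and 1789 to 2392 CPM in the WT groups. Of 9 macrophage and monocyte markers tested, 3 rose with FL in Clec9agfp/gfp cDC1s (beside 2.01% of all genes), C1qa, C1qb and Ly6c2, and none was called in WT. The summed level of this list was 341 to 464 CPM in Clec9agfp/gfp control and 425 to 472 CPM in Clec9agfp/gfp FL libraries, and 493 to 730 and 432 to 468 CPM in WT. The part of proliferation and of these markers in the values of Eif3b, Eif2b5 and Eif5 was not tested.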

How the data were processed

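RNA-seq was performed on cDC1s sorted from B16F10 tumors in 12 libraries, 3 per group, each a pool of 2 to 3 mice. According to the legend the pools came from independent experiments. The p-values rest on the spread between these pools, which limma draws toward that of genes at a similar level. Per the methods and the submitters' notes, the authors prepared unstranded libraries with Nextera XT, sequenced 61 bases from 1 end, demultiplexed with CASAVA 1.8.2, trimmed with cutadapt 1.3, quantified with RSEM 1.2.3 on the GRCm38 transcriptome and normalized with TMM in limma. The deposited signal values are TMM-scaled counts per M, and each equaled a whole count plus 0.5 divided by the effective library size (14.4 to 25.9 M, and 3.06 M in Clec9agfp/gfp control 3) within a tolerance of 0.02 counts. For 4 of the deposited columns low values were too few for an independent check of this. No strand was kept, so overlapping genes cannot be separated. Genes that share 61-base words with other genes are uncertain (Eif3j1 49.3%, Eif3j2 89.9%, Eif4ebp3 64.9%, Eif3d 35.9% and Eif2s3x 34.4% of words). Eif3d and the pair Eif3j1 and Eif3j2, which share words with each other, are among the 13 genes set against Eif3b.

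Values were tested with limma 3.58.1 in R 4.3.3 on log2(value + 1), 1 mean per group over all 12 libraries, with a mean-variance trend, for 11255 genes with a mean of 1 or more. The added 1 makes the change of low genes look smaller than it is. The SD within groups on this scale was 0.63 for Eif3b, 0.69 for Eif2b5 and 0.86 for Eif3f. It was larger than in 91.2%, 94.4% and 98.4% of all genes, so the SEs printed for these genes are smaller than their own pools alone would give. Benjamini-Hochberg adjustment ran over all genes of a comparison, with calls under 0.1. Alternatives covered the pseudocount, filters, scaling, limma-voom and edgeR 4.0.16 on recovered whole counts, sample weights, the groups compared alone, the replicate block, each library left out and, chosen after seeing the data, a length adjustment. The fits were also run on simulated counts with known changes. Those counts held no trend with gene length, so that run says nothing about it.

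Members and lists were chosen with earlier results of these data known. Values in every library are given for Eif3b, for up to 12 genes with the smallest p among those called in any comparison except Clec9agfp/gfp FL against WT control, and for Eif2s3x. The 2 members with the smallest p in either FL comparison were named from each related list. Eif1, Eif3f, Eif3h and the genes named only by their fold changes were chosen after their values were seen. Coordinates and exonic lengths come from GENCODE M21 on GRCm38, which held all 49 identifiers, and upstream windows from RefSeq.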

Additional observations from a re-analysis of the deposited data

Results flagged for a closer look

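Eif3h, a subunit gene of eIF3, had log2 fold changes with FL of opposite sign in the 2 genotypes, −0.47 in WT (SE 0.18, limma's adjusted p = 0.163) and 0.49 in Clec9agfp/gfp cDC1s (SE 0.18, adjusted p = 0.181), and neither was called. It was at 245, 195 and 283 CPM in WT control and 183, 161 and 174 CPM in WT FL libraries, all of the latter lower. It was at 166, 134 and 127 CPM in Clec9agfp/gfp control and 202, 190.2 and 204 CPM in Clec9agfp/gfp FL libraries, all of the latter higher. The interaction was 0.95 on the log2 scale (0.953, SE 0.26, unadjusted p = 0.00203), and its adjusted p of 0.384 from limma did not pass the threshold, so the difference was not called. Between the genotypes Eif3h differed by −0.75 with control (SE 0.18, limma's adjusted p = 0.188) and by 0.20 with FL, without a call. Eif3h has 1612 exonic bases and lies in the shortest length class (up to 2362 bases). The median log2 fold change in that class was −0.32 with FL in WT, 0.06 in Clec9agfp/gfp cDC1s and 0.36 for the interaction. Whether length accounts for the opposite signs of Eif3h was not tested. Of the words of 61 bases of Eif3h, 16.5% occur in another annotated gene.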

How the results depend on the processing

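The number of initiation factor genes called with FL in WT cDC1s was 5 in the main analysis, where 6.56% of all genes were called. It was 2 with column totals (8.89% of all genes), 2 with edgeR (3.39%) and 3 with sample quality weights (3.9%). The number was 1 with the length adjustment (2.665%), 1 with only the groups compared (0.874%) and 0 to 15 with 1 library left out. It was 0 without WT control 3, WT FL 2 or WT FL 3, where 0%, 0% and 0.32% of all genes were called. It was 15 (30.6%) without WT control 2, where 22.5% of all genes were called, so in these fits without 1 library the count moved with that of the whole table. With FL in Clec9agfp/gfp cDC1s the number, 3, was 6 with sample quality weights (12.2%, beside 13.5% of all genes) and 1 to 3 with 1 library left out. Where it was 1, 0.943% to 2.27% of all genes were called. With both genotypes averaged the number was 5 to 16 instead of 10. Between the genotypes with control it was 0 to 9 instead of 0, and in Clec9agfp/gfp FL against WT control 1 to 22 instead of 15. The 5 came where 8.85% or 10.9% of all genes were called. The 16, the 9 and the 22 each came without WT control 2, where 25.1%, 20.7% and 34.6% of all genes were called. Eif3b relative to the other subunits kept a difference of −2.62 to −2.17 in Clec9agfp/gfp cDC1s. For the 49 genes, 145 alternative values of these counts and of this difference stayed within 1.5 times or 1 SD and 32 did not. No direction of a called gene was reversed, and of the alternative values of single genes 303 kept the call and 101 lost it. With the replicate block the counts were 4 with FL in WT, 3 in Clec9agfp/gfp and 14 in Clec9agfp/gfp FL against WT control. Within a genotype same-numbered libraries did not deviate together (r = −0.197 to 0.166 between the WT groups and 0.0159 to 0.0676 between the Clec9agfp/gfp groups). Between Clec9agfp/gfp control and WT FL, which were not compared directly, they did (r = 0.122 to 0.339, against −0.27 to −0.0141 for different numbers), and each library correlated best with its own number, which was so in none of the other 5 pairs of groups. The labels do not say what a number stands for, and the numbers were not taken as pairs. Depth limits mainly Clec9agfp/gfp control 3, in which 3 counts correspond to 0.979 CPM, against 0.116 to 0.208 CPM in the others.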

Other observations

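Eif4a-ps4, a pseudogene that the rule leaves out, was named after its values were seen. It was at 207, 94.9 and 0.0346 CPM in WT control, 80.6, 0.0238 and 81.4 CPM in Clec9agfp/gfp control, 92.8, 72.4 and 19.0 CPM in WT FL and 75.4, 90.2 and 110.5 CPM in Clec9agfp/gfp FL libraries. The 2 lowest values correspond to 0 counts. Its parent gene Eif4a1 stayed within 469.5 to 776 CPM, and 27% of the 61-base words of Eif4a1 occur in other annotated genes, 23.4% in Eif4a-ps4. Reads of the pair cannot be told apart with certainty, so it is uncertain too that Eif4a1 was lower in all WT FL than in all WT control libraries.

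Eif4ebp3, the lowest of the 49 genes on the CPM scale, was at 6.38 CPM in WT control 1 and at 1.13 to 3.59 CPM in the other 11 libraries.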
